A study of Rattus norvegicus with 16 samples.

Results

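The miRNAs described here are those encoded inside Htr2c, the X-linked gene of the serotonin 2C receptor. They were chosen by name: every row for miR-1298, miR-1912, miR-448 or miR-764, on either arm, which gave 7 of the 722 mature miRNAs counted. The files list them as rno-miR-1298, rno-miR-1912-3p, rno-miR-1912-5p, rno-miR-448-3p, rno-miR-448-5p, rno-miR-764-3p and rno-miR-764-5p. The samples were dorsal raphe or amygdala tissue of 60-day-old rats of 2 lines, labelled high responder and low responder, with 4 small RNA libraries in each of 4 groups. These groups were low responder dorsal raphe, high responder dorsal raphe, low responder amygdala and high responder amygdala. The labels name no treatment or engineered allele. Whether each sample is a rat of its own is not stated in them, and the tests below therefore measure spread among samples that may be technical.

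A miRNA is cut from a hairpin in a longer transcript. Either arm of the hairpin, 5p or 3p, can be loaded into the silencing complex, where its seed, bases 2 to 8, pairs with messenger RNAs. miRNAs in an intron can be released from the host gene's transcript, and the hairpins of Htr2c lie in its introns in mammals. The receptor is a G protein-coupled receptor of many forebrain neurons, the amygdala included, and is most abundant in the choroid plexus, the epithelium that makes cerebrospinal fluid. The dorsal raphe holds the serotonin neurons that project to the forebrain. High and low responder rats are lines bred for how much they explore a new environment.

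RefSeq (rat, build GRCr8) places all 4 hairpins on the plus strand of the X chromosome, inside the bounds of Htr2c and on its strand. In the direction of transcription they are Mir764 (chrX:115490638-115490745), Mir1912 (chrX:115498019-115498106), Mir1298 (chrX:115556947-115557085) and Mir448 (chrX:115641955-115642066). The build of the deposited counts is not given in the sources used here, and no count rests on these positions. Mature sequences were matched for 6 of the 7 members; miR-764-5p is named only. They are shown with the seed in capitals because the results below separate the arms of a hairpin, which carry different seeds.
miR-1298: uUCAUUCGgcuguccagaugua
miR-448-3p: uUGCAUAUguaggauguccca
miR-448-5p: aACAUCCUgcauagugcugcca
miR-1912-3p: cACAGAACaugcagugaga
miR-1912-5p: uGCUCAUUgcaugggcuaugu
miR-764-3p: gAGGAGGCcauaguggcaacugu
All 6 seeds differ, and none of them is the seed of any other of the 693 rat mature miRNAs in the RefSeq table. These 6 miRNAs thus share a host gene but no seed family, and the seed of miR-764-5p was not compared. The hairpin of miR-448 shows how its arms lie, with both mature sequences in capitals, the 5p arm first.
Mir448: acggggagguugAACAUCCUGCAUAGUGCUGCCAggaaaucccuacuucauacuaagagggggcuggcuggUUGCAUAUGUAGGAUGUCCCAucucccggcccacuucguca

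Library totals ran from 1741167 counts (high responder amygdala replicate 1) to 8134915 (low responder amygdala replicate 4). A floor of 3 counts stood for 0.369 to 1.72 counts per 1000000 (CPM), which covers counting error only. CPM below use library totals adjusted by edgeR's TMM factors (trimmed mean of M values). All 7 members passed the filter on low counts. Low responder amygdala replicate 4 and low responder dorsal raphe replicate 4 stood apart from their groups in several members. For miR-10b-5p, a Hox cluster miRNA of hindbrain, that amygdala library had 8.19 CPM against 6.29 to 53.8 in the other 7. That raphe library had 2610 CPM against 240.1 to 316.1 in the other 7, farther from amygdala than they were. For miR-128-3p, a miRNA of forebrain neurons, that amygdala library had 68527 CPM, within the 45979 to 115022 of the others. That raphe library had 33492 CPM, between the 12166 to 20158 of the other raphe libraries and the amygdala range. That raphe library had the lowest TMM factor, 0.596, which raises its scaled levels.

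The members that were higher in amygdala than in dorsal raphe, by 7.59-fold to 16-fold, were miR-1298, miR-1912-3p and miR-448-3p. miR-764-3p was lower, at 1.90-fold. The partner arms miR-448-5p, miR-1912-5p and miR-764-5p did not pass the test. Of the 7 members, 3 were thus higher and 1 lower at an adjusted p under 0.05 (edgeR quasi-likelihood test, averaged over the lines), where 9.39% of all 639 miRNAs tested were higher and 14.9% lower. The median log2 fold change was 1.08 over the members and -0.08 over all miRNAs tested.

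miR-1298, the most abundant member, had levels of 903.8, 748.3, 1321 and 3186 CPM across low responder dorsal raphe replicates 1 to 4, and of 935.9, 1288, 719.7 and 1983 CPM across the high responder ones. In amygdala it stood at 8729, 38568, 23600 and 1092 CPM in low responders and at 25007, 34621, 25072 and 23001 CPM in high responders. Low responder amygdala replicate 4 lay within the raphe range, and the other 7 amygdala libraries lay above every raphe library. By count, miR-1298 held rank 4 to 24 among all miRNAs in those 7 libraries, rank 91 in low responder amygdala replicate 4, and rank 62 to 117 in dorsal raphe. The region difference was 4.00 on the log2 scale (SE 0.54, adjusted p = 2.7e-05, edgeR) and 4.31 without low responder amygdala replicate 4.

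In dorsal raphe miR-1912-3p measured 6.87, 4.30, 5.87 and 1.60 CPM among low responders and 7.51, 5.78, 5.44 and 6.41 CPM among high responders. In amygdala it stood at 31.2, 138, 79.0 and 7.92 CPM in low responders and at 27.1, 75.8, 96.0 and 103 in high responders. The regions did not overlap, with amygdala above, as for 1.88% of the miRNAs tested, although low responder amygdala replicate 4 was only just above the highest raphe library. In dorsal raphe the level rested on 2 to 44 counts, with the 2 counts of low responder replicate 4 below the floor. The log2 fold change was 3.63 (SE 0.47, adjusted p = 2.0e-05).

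In dorsal raphe miR-448-3p measured 71.8, 72.3, 84.1 and 147 CPM among low responders and 67.9, 79.0, 64.4 and 109.8 CPM among high responders. In amygdala it stood at 310.8, 1262, 629.1 and 42.3 CPM in low responders and at 364.6, 950.5, 866.8 and 898.7 in high responders. Here low responder amygdala replicate 4 was below every raphe library. The log2 fold change was 2.92 (SE 0.46, adjusted p = 0.000152), and 3.22 without that library.

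miR-448-5p, cut from the same hairpin as miR-448-3p, ran from 19.2 to 42.8 CPM in dorsal raphe (median 34.1) and from 11.7 to 54.4 in amygdala (median 21.1). The regions overlapped widely (log2 fold change -0.33, SE 0.29, adjusted p = 0.417). miR-764-3p ran from 12.1 to 26.7 CPM in dorsal raphe (median 17.5) and from 5.32 to 14.9 in amygdala (median 9.43), a fall by 0.93 on the log2 scale (SE 0.24, adjusted p = 0.00819). Its partner miR-764-5p ran from 4.89 to 17.6 CPM in dorsal raphe and from 3.17 to 17.4 in amygdala (0.28, SE 0.30, adjusted p = 0.488). Leaving out the 3 libraries that stand apart, both libraries named above and high responder amygdala replicate 1, gave miR-764-5p 0.78 and an adjusted p of 0.00557 (edgeR). This fit was not planned. It removed the lowest amygdala values of miR-764-5p (3.17 and 6.92 CPM) and its highest raphe value (17.6 CPM). A larger difference thus follows from the choice of libraries, and the adjusted p adds no support. miR-1912-5p was the least abundant member, with 3 to 30 counts in a library and 0.783 to 10.1 CPM (1.08, SE 0.50, adjusted p = 0.116). It passed, at 1.12 and an adjusted p of 0.0259, with the replicate number as a block. Leaving out 1 library raised it past the threshold for high responder dorsal raphe replicate 1 (adjusted p = 0.0248) and for high responder amygdala replicates 3 (0.0464) and 4 (0.0443).

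**Figure D1:**
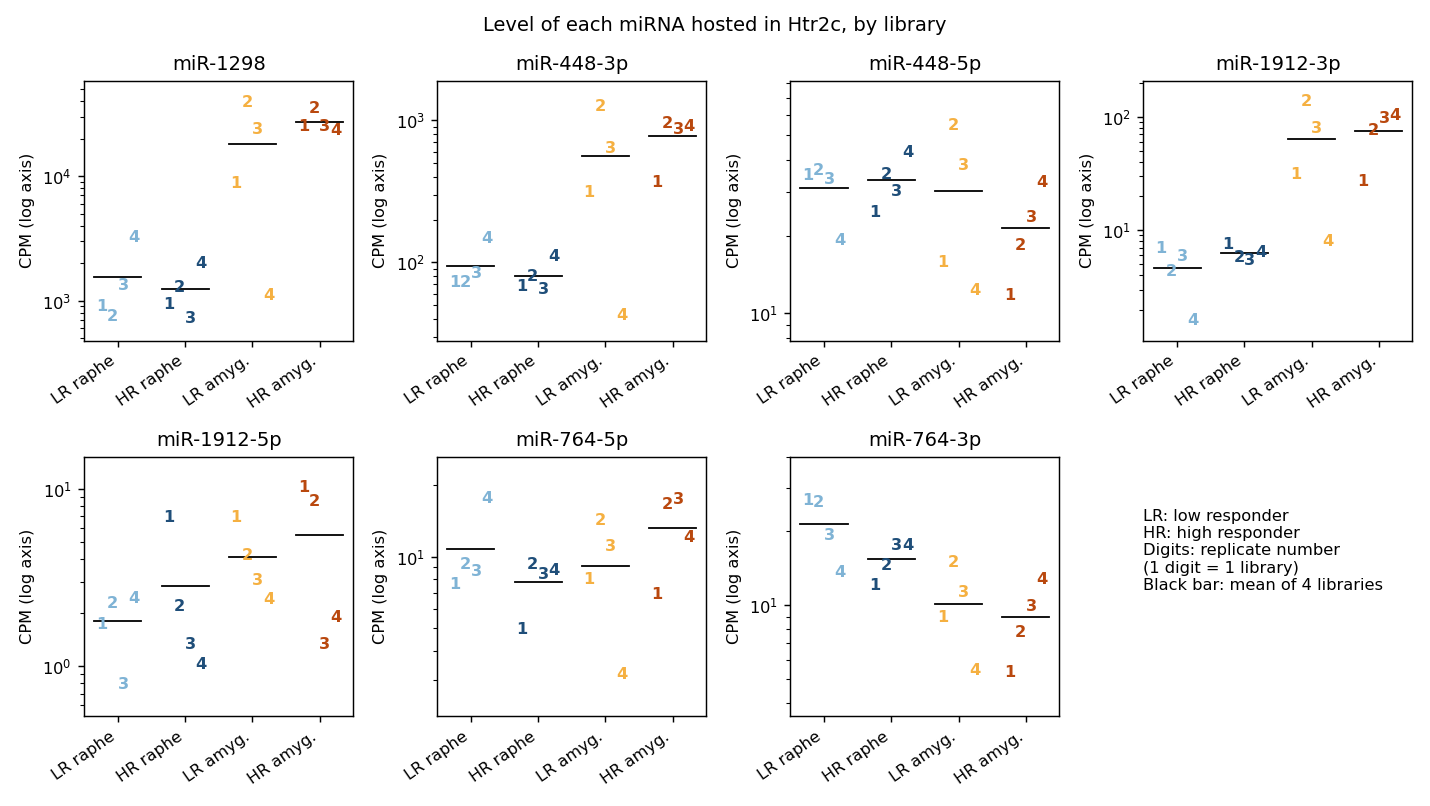
Level of the 7 members in each library, in CPM on a log axis that differs between panels; each digit is 1 library and gives its replicate number, and the black bar is the mean of 4 libraries. miR-1298, miR-448-3p and miR-1912-3p are high in 7 of 8 amygdala libraries, while low responder amygdala replicate 4 stands at 1092, 42.3 and 7.92 CPM.

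A further hairpin, Mir3552, lies inside the bounds of Htr2c in RefSeq. It is outside the naming rule and was looked up after the values of the others were seen. miR-3552 averaged 21.6 ± 12.2 CPM in amygdala and 24.1 ± 9.41 in dorsal raphe (SD, n = 8 libraries each), with no difference past the test (log2 fold change -0.18, SE 0.34, adjusted p = 0.708, edgeR). The value changed sign, to 0.06, without low responder amygdala replicate 4.

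Within each line the same 3 members were higher in amygdala. In low responders the log2 fold changes were 3.55 for miR-1298 (SE 0.74, adjusted p = 0.00307), 3.67 for miR-1912-3p (SE 0.67, adjusted p = 0.00111) and 2.59 for miR-448-3p (SE 0.65, adjusted p = 0.0127). miR-764-3p was lower there (-1.10, SE 0.34, adjusted p = 0.0336). In all, 4 of 7 members passed in low responders, against 14.1% of the miRNAs tested. In high responders they were 4.45 (SE 0.77), 3.60 (SE 0.66) and 3.26 (SE 0.67), with adjusted p of 0.000780, 0.00118 and 0.00262. Here 3 of 7 passed, against 13.1% of the miRNAs tested. miR-764-3p had -0.76 (adjusted p = 0.151) in high responders. In that line the regions did not overlap for miR-1298, miR-1912-3p and miR-448-3p, with amygdala above, as for 11.1% of all miRNAs tested.

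Single libraries set part of the low responder values. miR-1298 rose to 4.28 on the log2 scale without low responder dorsal raphe replicate 4. miR-448-3p came down to 1.98 (adjusted p = 0.0404) without low responder amygdala replicate 2, and missed the threshold with limma-voom (adjusted p = 0.111) and in a fit of the 2 low responder groups alone (adjusted p = 0.0589). The call of miR-764-3p in low responders was lost in most fits that left out 1 library, with -0.78 and an adjusted p of 0.139 without low responder amygdala replicate 4.

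**Figure D2:**
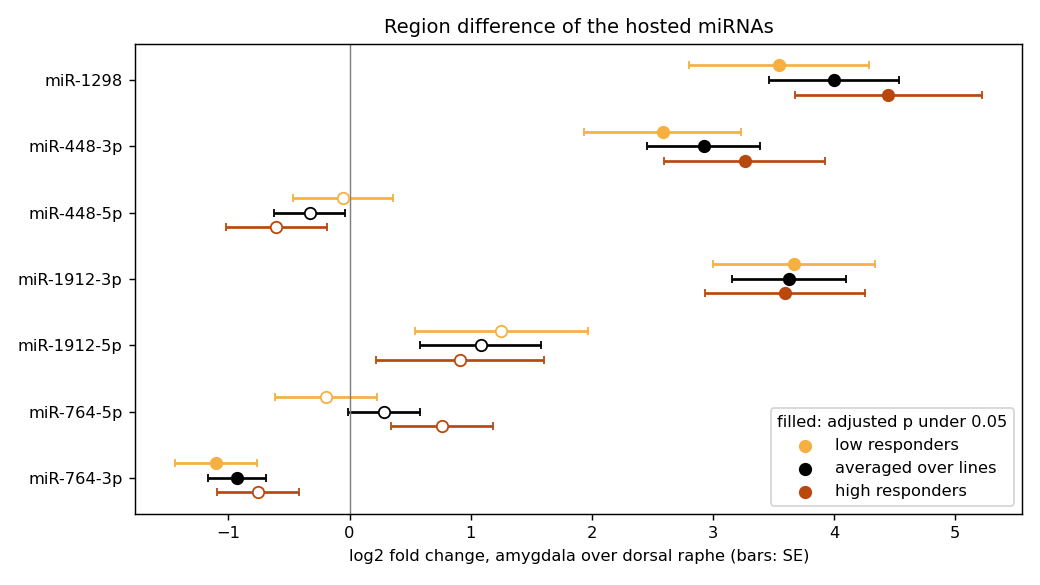
Log2 fold change of amygdala over dorsal raphe with its SE, for each member in low responders, in high responders and averaged over the lines; filled points passed an adjusted p of 0.05. miR-1298, miR-448-3p and miR-1912-3p lie between 2.59 and 4.45 in all 3 comparisons, and the partner arm miR-448-5p lies between -0.60 and -0.05.

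Neither line difference nor the interaction of line and region passed for any member, and 0% of all 639 miRNAs passed in each of these comparisons with edgeR. None of the 7 had an unadjusted p under 0.05 in any of the 3 with edgeR, where 10.2% of all miRNAs did by line in amygdala, 11% by line in dorsal raphe and 12.7% in the interaction. DESeq2 and limma-voom called 0 of 7, though DESeq2 gave miR-1912-5p no adjusted p in the interaction. Over all 639 miRNAs DESeq2 called 19 by line in amygdala (2.97%), 0 in dorsal raphe (0%) and 22 in the interaction (3.44%), and limma-voom called 0 in each. In amygdala the mean level of miR-1298 was 26925 ± 5220 CPM for high responders and 17997 ± 16595 CPM for low responders (SD over 4 libraries). The log2 fold change was 0.58 (SE 0.67, adjusted p = 0.769). The low responder libraries ran from 1092 to 38568 CPM and enclosed all 4 high responder libraries. The log2 fold change was 0.26 without low responder amygdala replicate 4 and 1.31 without replicate 2. miR-448-3p averaged 770.2 ± 272.6 against 561.1 ± 525.3 CPM (0.46, SE 0.61) and miR-1912-3p 75.5 ± 34.2 against 64.0 ± 57.5 CPM (0.25, SE 0.58). In dorsal raphe miR-1298 averaged 1232 ± 553 CPM in high and 1540 ± 1124 in low responders (-0.32, SE 0.67, adjusted p = 0.991), and the value was 0.43 without low responder replicate 4. The lowest adjusted p of any member was 0.709 in amygdala, 0.730 in dorsal raphe and 0.518 for the interaction, the last for miR-764-5p (0.96, SE 0.59). The interaction of miR-1298 was 0.90 (SE 0.95, adjusted p = 0.783).

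The arms of one hairpin were compared within each library, where the scaling between libraries cancels. Of the counts of both arms of miR-448, the 5p arm held 27.9% ± 7.01 in dorsal raphe and 6.05% ± 6.76 in amygdala (SD, n = 8 libraries each). Without exception in high responders, the share was 26.8% to 31.9% in dorsal raphe and 1.91% to 3.49% in amygdala. In low responders it was 32.6%, 33.3% and 28.5% in dorsal raphe replicates 1 to 3 and 4.84%, 4.13% and 5.69% in amygdala replicates 1 to 3. The libraries numbered 4 in low responders ran the other way, with 11.5% in dorsal raphe (95% Wilson interval 7.88 to 16.6, counting error only) and 22.5% in amygdala (18.8 to 26.8).

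The log2 ratio of miR-448-3p to miR-448-5p was 4.40 ± 1.18 in amygdala and 1.42 ± 0.62 in dorsal raphe, a difference of 2.98 (exact two-sided permutation test over 8 against 8 libraries, p = 0.000311, adjusted p = 0.000653 over 21 pairs of members). For miR-1912 the log2 ratio of 3p to 5p differed by 2.34 (adjusted p = 0.0170, exact permutation test), with a 5p share of 11.03% ± 10.4 in amygdala and 29.3% ± 17.1 in dorsal raphe. miR-764 went the other way: its 5p arm held 52.4% ± 9.96 in amygdala and 33.7% ± 10.4 in dorsal raphe (log2 ratio of 5p to 3p 1.15 higher in amygdala, adjusted p = 0.00771, exact permutation test). The counts behind miR-1912 and miR-764 are small, with 3 to 30 in a library for miR-1912-5p, 10 to 171 for miR-764-3p and 13 to 105 for miR-764-5p.

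**Figure D3:**
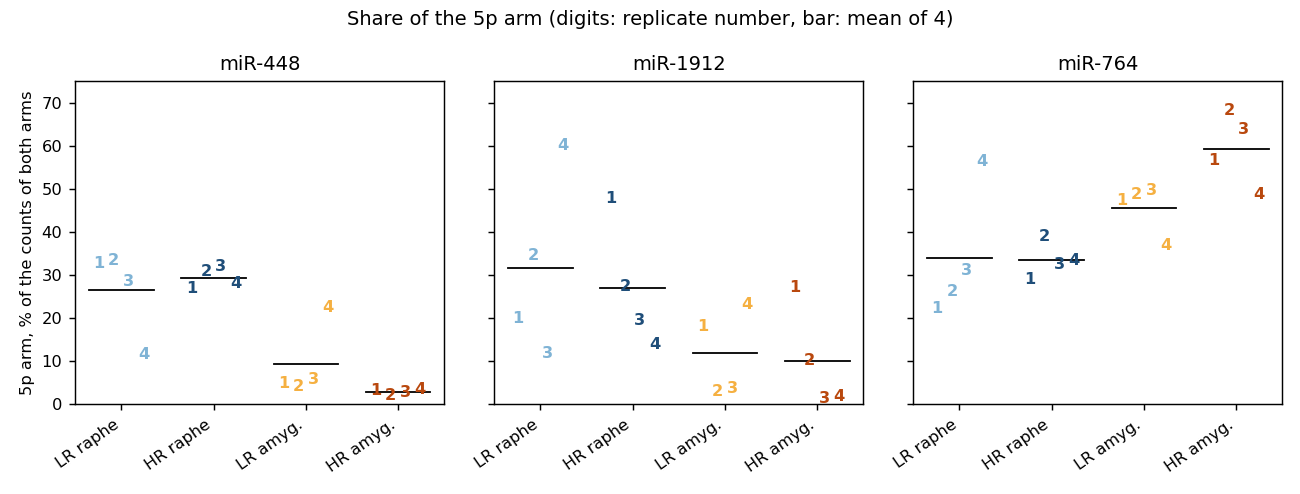
Share of the 5p arm in the counts of both arms (percent), for the 3 hairpins with both arms counted; each digit is 1 library and gives its replicate number, and the bar is the mean of 4 libraries. The miR-448 share is 1.91% to 5.69% in 7 amygdala libraries and 22.5% in low responder amygdala replicate 4.

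The same test was run on all 222 hairpins with both arms past the filter, chosen after the values of the members were seen. The arm ratio differed between the regions for 11 hairpins (4.95%) at an adjusted p of 0.05 in the exact permutation test. miR-448 was one of them (adjusted p = 0.0138) and had rank 3 by size of the difference, where the median absolute difference was 0.44. miR-1912 had rank 7 (adjusted p = 0.126) and miR-764 rank 22 (adjusted p = 0.0641, or 0.0296 without low responder amygdala replicate 4). The next count has no background, as it was not computed over all 222 hairpins. In 9 of the 11 hairpins, miR-448 included, the more abundant arm had the larger fold change between the regions. Among these were miR-34a, with -3.15 for the abundant 5p arm and -0.70 for the 3p arm, and miR-96, with -2.98 for the 5p arm and 1.32 for the 3p arm, whose averages were 2.43 and 2.42 CPM for the minor arms.

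**Figure D4:**
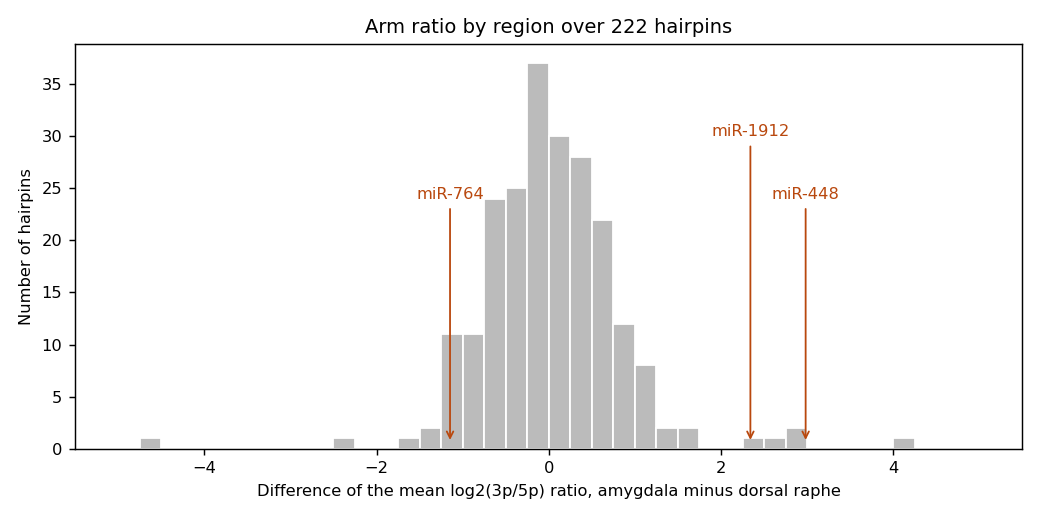
Number of hairpins (y axis) by the difference of the mean log2 ratio of 3p to 5p counts, amygdala minus dorsal raphe (x axis), over 222 hairpins. Arrows mark miR-448 at 2.98, miR-1912 at 2.34 and miR-764 at -1.15.

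Of all 21 pairs of members, 16 (76.2%) passed the exact permutation test, made up of the 3 pairs of arms and 13 of 18 pairs from different hairpins. Pairs that set miR-1298, miR-448-3p or miR-1912-3p against another arm largely restate the region difference given above. The share among pairs of other miRNAs was not computed, so the count stands without a background. miR-1298 rose more than miR-448-3p: the log2 ratio of their counts was 5.06 ± 0.47 in amygdala and 3.86 ± 0.36 in dorsal raphe, without overlap between the regions (difference 1.20, adjusted p = 0.000653, exact permutation test; raw p = 0.000155, the smallest that 8 against 8 libraries can give). That difference was 1.05 to 1.28 when any 1 library was left out. miR-1298 and miR-1912-3p were not told apart (0.40, adjusted p = 0.454, exact permutation test), though the difference was 0.80 and passed (adjusted p = 0.0379) without low responder dorsal raphe replicate 4, where miR-1912-3p had 2 counts. miR-448-3p rose less than miR-1912-3p: the log2 ratio of their counts was 3.20 in amygdala and 3.99 in dorsal raphe. The difference was -0.80 (adjusted p = 0.0181, exact permutation test), and -0.48 without low responder dorsal raphe replicate 4. It was -1.38 in low and -0.21 in high responders, a gap that was not tested.

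Within regions, some pairs of miR-1298, miR-1912-3p and miR-448-3p varied together from library to library by Pearson r. In amygdala, after centring each line, the Pearson r of log2 CPM was 0.96 for miR-1298 and miR-448-3p (permutation p = 0.0156, adjusted 0.0313; Spearman rho 0.83, permutation p = 0.0781, adjusted 0.156). It was 0.97 for miR-1912-3p and miR-448-3p (permutation p = 0.00868, adjusted 0.0260; rho 0.93, permutation p = 0.0174, adjusted 0.0521) and 0.88 for miR-1298 and miR-1912-3p (permutation p = 0.0295, adjusted 0.0443; rho 0.71, permutation p = 0.186, adjusted 0.242). With the 2 most distant libraries on the x axis left out, the r of miR-1298 were 0.59 with miR-448-3p and 0.48 with miR-1912-3p, so both relations rest on those libraries, low responder replicates 2 and 4. For miR-1912-3p and miR-448-3p the r was still 0.95 without high responder replicate 1 and low responder replicate 4. It did not pass (permutation p = 0.278) with 36 arrangements, of which the smallest possible p is 0.0278 before adjustment. In dorsal raphe miR-1298 and miR-448-3p had an r of 0.98 (permutation p = 0.00347, adjusted 0.0208; rho 0.93, permutation p = 0.00694, adjusted 0.0417). That r was 0.95 without 2 libraries (permutation p = 0.0556, adjusted 0.333). With library totals as the scaling, r was 0.86 (permutation test, adjusted p = 0.0260). The rho was then also 0.86 and did not pass (permutation test, adjusted p = 0.0677). miR-1912-3p had negative r there with miR-1298 (-0.64, permutation p = 0.214; rho -0.38, permutation p = 0.436) and with miR-448-3p (-0.72, permutation p = 0.153; rho -0.60, permutation p = 0.201), which became 0.33 and 0.23 without 2 libraries. Of these 6 relations 4 passed by r and 1 by rank. The share among pairs of other miRNAs was not computed, so these counts stand without a background. Over deviations from the group means, miR-34c-5p, not a member, had an r of 0.97 with the mean of miR-1298, miR-1912-3p and miR-448-3p.

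Averaged over the lines, miRNAs of the choroid plexus were also higher in amygdala. Their list was chosen with earlier results of these data known, so its count is descriptive only. The list of choroid plexus epithelium miRNAs (miR-204 and miR-211, both arms) had 3 of 4 higher in amygdala and none lower, with a median log2 fold change of 1.62, where 9.39% of all miRNAs tested were higher. Within the lines it had 0 of 4 past the test in low responders (median 0.69) and 3 of 4 in high responders (median 2.34); the list's difference between lines had 0 of 4 past the interaction test. Its summed level was 2065 to 3827 CPM in low responder and 1535 to 2909 CPM in high responder dorsal raphe, and 999 to 9229 CPM in low responder and 8269 to 17106 CPM in high responder amygdala. No marker was at 0, and miR-204-5p alone stood at 942 CPM in low responder amygdala replicate 4. Ciliated cell miRNAs (miR-34b, miR-34c, miR-449a, miR-449c) had 2 of 8 higher, a median of 1.15 and a summed level of 343 CPM in that library, against 3732 to 11902 CPM in the other 7 amygdala libraries. In bulk tissue, fewer cells of a type and less RNA per cell cannot be told apart. The part of choroid plexus tissue in the region difference of the members was not tested.

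The members were also set against miR-204-5p within each library, a comparison added after the values were seen. Averaged over the lines, miR-204-5p was itself higher in amygdala by 1.79 on the log2 scale (edgeR). That is less than for miR-1298, miR-1912-3p and miR-448-3p. The ratios largely restate this gap, and their p add no support of their own. The count of miR-1298 was 0.262 to 1.16 times that of miR-204-5p in dorsal raphe and 1.16 to 4.34 times in amygdala. The mean ratio was 4.41-fold higher in amygdala on the log scale (exact two-sided permutation test over 8 against 8 libraries, adjusted p = 0.000466 over 3 ratios). For miR-1912-3p it was 3.33-fold higher (adjusted p = 0.000932, exact permutation test) and for miR-448-3p 1.92-fold higher (adjusted p = 0.00404, exact permutation test). By line, the log2 difference was 2.49 in low and 1.78 in high responders for miR-1298, 2.82 and 0.66 for miR-1912-3p, and 1.43 and 0.45 for miR-448-3p; these gaps between the lines were not tested. Over all libraries, and within high responders, the ratio of miR-1912-3p overlapped between the regions. In high responders the ratio of miR-448-3p overlapped as well, at 0.0466 to 0.0679 in amygdala and 0.0234 to 0.0641 in dorsal raphe. In low responders it was 0.106 to 0.142 in amygdala replicates 1 to 3, 0.0449 in replicate 4, and 0.0296 to 0.0408 in dorsal raphe. Averaged over the lines, all 3 ratios also passed without low responder amygdala replicate 4.

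**Figure D5:**
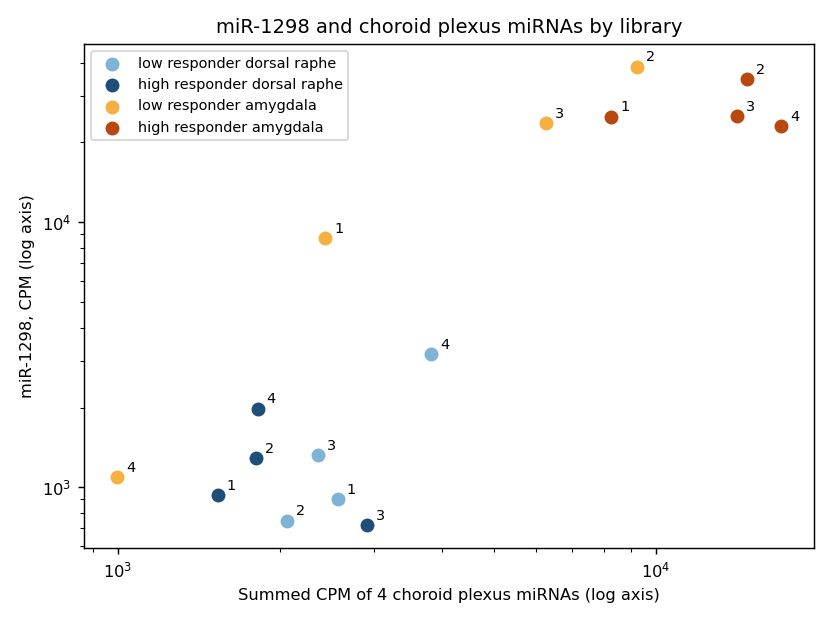
miR-1298 (y axis, CPM) against the summed level of 4 choroid plexus miRNAs (x axis, CPM), both on log axes, with 1 point for each library and its replicate number. Low responder amygdala replicate 1 stands at 8729 CPM of miR-1298 with 2433 CPM of the choroid plexus miRNAs, a sum within the range of the raphe libraries.

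Among the other cell type lists, set against 9.39% of all miRNAs tested being higher and 14.9% lower, the neuron list had 4 of 8 higher in amygdala (median 0.80). The oligodendrocyte list had 3 of 4 lower (-0.88), with 2 of 4 in low and 0 of 4 in high responders. The muscle list had 4 of 4 lower (-2.52), in each line as well. The vessel list (median -0.65, 4 miRNAs) and the erythrocyte list (0.23, 3 miRNAs) had none past the test. Of 401 other miRNAs of at least 10 CPM, those most like the mean of miR-1298, miR-1912-3p and miR-448-3p over the 16 libraries were miR-344a-3p (r = 0.93), miR-204-5p (0.89), miR-211-5p (0.85), miR-455-5p (0.82), miR-935 (0.81), miR-222-3p (0.80), miR-204-3p (0.80) and miR-449a-5p (0.79). These r include the region difference itself. Over deviations from the 4 group means the order was miR-34c-5p (0.97), miR-34c-3p (0.93), miR-204-5p (0.90), miR-34b-5p (0.89), miR-34b-3p (0.89), miR-204-3p (0.88), miR-211-5p (0.86) and miR-375-3p (0.81). Among the members themselves, miR-448-5p had -0.00 over the 16 libraries and 0.77 over the deviations, and miR-764-3p had -0.43 and 0.66.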

How the data were processed

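The authors deposited raw read counts of mature miRNAs, with 722 rows in each of 16 tables. RNA came from a miRNeasy kit and libraries were size-selected, per the labels' protocols. For alignment settings, genome build, annotation and reads with several matches, the sources used here state nothing. Bowtie2, cutadapt 1.3.1 and bedtools 2.14.2 appear in the submitters' processing notes. Counts were used as deposited. edgeR's filterByExpr (minimum count 10, minimum total 15) kept 639 miRNAs and dropped 83. The test was edgeR 4.0.16 (R 4.3.3), quasi-likelihood with robust moderation, TMM scaling and 1 mean per group over all 16 libraries, with Benjamini-Hochberg adjustment over all 639 and a threshold of 0.05. SE is the log2 fold change over the root of F. log2 CPM uses a prior count of 2, and ratios use counts plus 0.5. DESeq2 1.42.0 and limma 3.58.1 were alternatives. Permutation tests (SciPy 1.17.1 and NumPy 2.4.6) enumerated all 12870 arrangements of 8 against 8 libraries, or 576 within lines. The edgeR and ratio tests were tested on simulated data.

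All members are described. From each cell type list counts and medians are given, and the 8 miRNAs most like the members by Pearson r. Members and lists were chosen with earlier results of these data known. Between the 2 amygdala groups, deviations of libraries with the same replicate number correlated at 0.69, 0.29, 0.21 and 0.51. All exceed 0.1, so these groups were treated as paired by number in an alternative fit of the amygdala libraries alone, although no label explains the numbers. Each other pairing of groups held at least 1 value at or below 0.1. The replicate block over all libraries was run as a further alternative, although these other pairings did not meet the criterion.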

Additional observations from a re-analysis of the deposited data

Results flagged for a closer look

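In 40 sets of 4 libraries (7 members and 3 arm ratios in each group), 3 held 1 library set off from the others by a gap above Dixon's 95% critical value; chance gives about 1 in 20. In log2 CPM, miR-448-3p stood at 8.51 in high responder amygdala replicate 1, against 9.76 to 9.89 in the other 3. For miR-448-5p it was low responder dorsal raphe replicate 4, at 4.30, with the others at 5.08 to 5.19. miR-764-5p stood at 2.42 in high responder dorsal raphe replicate 1, against 3.14 to 3.27.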

How the results depend on the processing

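The 1585 alternative values were counts past the threshold and single values. Of the counts, 2 changed by more than 1.5 times and 164 did not, among them the member counts by line and for the interaction, which stayed at 0. In the 2 cases, 2 members passed, not 4, in a fit of the low responder groups alone, and 0 of 6 relations by r, not 4, with the 2 most distant libraries left out. Of the single values, 1317 kept sign and call, 61 changed sign, 22 lost a call and 19 gained one. The rises of miR-1298, miR-1912-3p and miR-448-3p averaged over the lines passed under every alternative run (3.71 to 4.64, 3.21 to 3.97 and 2.51 to 3.49). With the replicate block 5 members passed for the averaged region difference, miR-1912-5p being the added one, and the block changed no other call of a member; with the amygdala libraries alone it gave 0 for the line difference. Leaving out 1 library gave 4 to 5 members for the averaged difference, 3 to 4 in low responders, 3 in high responders and 16 to 19 ratios.

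Sign changes, none of them of a called value, were as follows. With library totals as the scaling: miR-448-5p (0.038) and miR-764-5p (0.037) by region in low responders, miR-1298 (0.10) and miR-448-3p (0.10) by line in dorsal raphe. With DESeq2 and with the 2 groups alone: miR-448-5p in low responders (0.032 and 0.10). With limma-voom: miR-1912-5p by line in amygdala (-0.30) and miR-1912-3p in the interaction (0.46, and 0.14 with the replicate block). Without libraries under 3000000 counts: miR-764-5p in low responders (0.19), miR-1912-5p (-1.35) and miR-764-3p (0.17) by line in amygdala, miR-1298 (0.51), miR-448-3p (0.24) and miR-764-5p (0.14) by line in dorsal raphe, miR-1298 (-0.074) and miR-1912-3p (0.53) in the interaction. Without the 3 libraries that stand apart: miR-3552 (0.072) by region, miR-448-5p (0.22) and miR-764-5p (0.55) in low responders, miR-1912-5p (-0.33) by line in amygdala, miR-1298 (0.43), miR-448-3p (0.19) and miR-764-5p (0.00012) by line in dorsal raphe, and miR-1298 (-0.20) in the interaction. The r of miR-1912-3p in dorsal raphe became 0.33 and 0.23.

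Leaving out 1 library spanned 0 for miR-3552 (-0.32 to 0.056) by region, for miR-448-5p (-0.36 to 0.31) and miR-764-5p (-0.33 to 0.23) in low responders, and by line in amygdala for miR-1912-3p (-0.071 to 0.97), miR-1912-5p (-0.12 to 0.68), miR-448-5p (-0.70 to 0.0012) and miR-764-3p (-0.34 to 0.10). By line in dorsal raphe it did so for miR-1298 (-0.51 to 0.43), miR-1912-5p (-0.16 to 1.04), miR-448-3p (-0.28 to 0.20) and miR-764-5p (-0.49 to 0.010), and in the interaction for miR-1912-3p (-0.47 to 0.56) and miR-1912-5p (-0.95 to 0.47). The cause was not tested. Depth limits miR-1912-5p most, with 3 to 30 counts.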
